A study of Mus musculus with 89 samples.

Results

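Col1a1, Col1a2 and Col3a1 encode the main fibrillar collagen chains of connective tissue, and were taken by name as 3 of the 19962 gene targets of a spatial profiling panel. The assay was the GeoMx digital spatial profiler, in which oligonucleotide tags hybridise to RNA on a section and ultraviolet light releases the tags of a chosen region for sequencing. Regions lay on 5 µm fresh frozen sections of spontaneous mouse squamous cell carcinomas (SCC), and all 89 segments carried the label neutrophil. The study asked how neutrophils of different tumour regions respond to immunotherapy; the agent, the animals' genotype, sex and age, and the number of animals are not given in the sources used here.

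The deposited annotation placed each segment in 1 of 7 classes by stage and location. On the naive slide there were 15 segments in stroma, 13 at the interface of tumour and stroma, and 14 within the tumour. On the acute slide there were 9 in stroma and 2 at the interface, and on the relapse slide 14 in stroma and 22 at the interface. Naive stands for tumours before treatment, and acute and relapse for tumours after it. With 1 slide per stage, a stage difference and a slide difference cannot be told apart. The scan of the naive slide carries the model name "UP HRass" and that of the relapse slide "DMBA", a word for treatment was used both for the acute scan and for the relapse slide, and these names were not reconciled here. Plate G held every naive segment and plate H every relapse segment; acute stroma was split 4 to 5 between them, and both acute interface segments were on H.

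Type I collagen is a triple helix that joins chains made from Col1a1 with a chain made from Col1a2, and type III collagen is a helix of Col3a1 chains alone. Both are secreted as procollagens, mainly by fibroblasts, trimmed outside the cell and assembled into fibrils that give dermis and tumour stroma their strength. Type III is abundant in young and healing tissue, and both are raised in the desmoplastic stroma of carcinomas. Neutrophils are not a recognised main source of these chains, and the assay does not tell which cells of an illuminated area gave a tag.

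The 3 genes lie on different chromosomes in mouse build GRCm38 (called mm10 in the submitters' processing notes). RefSeq places Col1a1 at chr11:94936224-94953042, Col1a2 at chr6:4505618-4541543 and Col3a1 at chr1:45311538-45349706. The promoter table of RefSeq GRCm38.p6 matched 2 of the 3 chains, and the 250 bases before each start are printed because the chains moved together across segments, as described further on. Both windows are on the plus strand and read 5′ to 3′; capitals mark matches to the CCAAT box, to the TATA box string TATAAA and to the GC box, of which the letters searched were GGGCGG, on both strands.
Col1a2, chr6:4505368-4505617: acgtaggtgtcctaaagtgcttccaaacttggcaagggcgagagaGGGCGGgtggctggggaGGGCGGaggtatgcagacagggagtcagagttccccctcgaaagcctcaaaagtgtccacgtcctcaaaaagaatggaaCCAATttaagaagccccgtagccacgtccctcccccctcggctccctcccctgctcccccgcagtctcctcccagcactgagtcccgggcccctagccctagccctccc
Col3a1, chr1:45311288-45311537: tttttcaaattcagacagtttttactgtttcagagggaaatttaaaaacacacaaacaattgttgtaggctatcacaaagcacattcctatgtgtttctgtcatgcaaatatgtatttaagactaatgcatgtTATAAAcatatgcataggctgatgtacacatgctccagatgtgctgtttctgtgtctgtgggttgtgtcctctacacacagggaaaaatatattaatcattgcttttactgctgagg
The Col1a2 window held 1 CCAAT, 109 to 105 bases before the start, and 2 GGGCGG. The Col3a1 window held 1 TATAAA, 117 to 112 bases before the start, and neither of the other motifs. Of all 32851 promoter windows of this length in the table, 33.8% held CCAAT, 12.4% held TATAAA and 32.7% held GGGCGG on either strand. Base composition differed widely: GC content was 62% for Col1a2, above 76.7% of the windows, and 35.2% for Col3a1, above 5.00% of them. A match is a string of letters and not a measured site.

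Tag counts were recovered by multiplying the deposited signal by the upper-quartile factor that the authors deposited for the segment. The smallest recovered count was 1, called the floor here, and 69.1% of all values lay at it. Depth, the sum of counts of targets above the floor, ran from 915 to 228562 per segment with a median of 11428, and was lowest in relapse (class medians 6242 in stroma and 5565 at the interface) against 16264 in naive stroma. A chain's share is its recovered count as a percent of that depth, with a value at the floor set to 0. Each segment also has a limit of quantitation: its negative-probe geometric mean times their squared geometric SD, or 2 counts where that product is lower. Shares compare segments for 1 target, and levels of different targets are not compared because probes differ in efficiency.

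Col1a1, the main chain of type I collagen, gave some of the highest tag counts in naive stroma. Its share there ran from 0.0379% to 0.989% with a median of 0.598% over 15 segments, and its median rank by tag count among all targets was 3. At the naive interface the median was 0.0647% (0.0288% to 1.09%, n = 13), and within the naive tumour it was 0.0161% (0 to 0.224%, n = 14). The naive medians thus stepped down from stroma to interface to tumour, by 9.25-fold and then by 4.02-fold. In acute stroma the median was 0.126% (0.0186% to 1.92%, n = 9), and the 2 acute interface segments had 0.169% and 0.171%. Relapse ran the other way, with a median of 0.0656% in stroma (0 to 1.05%, n = 14) and 0.155% at the interface (0 to 0.549%, n = 22). In the order of medians, naive stroma came first, followed by acute interface, relapse interface, acute stroma, relapse stroma, naive interface and naive within tumour. The ranges of all neighbours in that order overlapped.

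Col3a1, the type III chain, gave nearly the same order at lower counts. Its naive medians were 0.437% in stroma (0.0230% to 0.737%), 0.0206% at the interface (0.0113% to 0.544%) and 0.00314% within the tumour (0 to 0.210%). In acute stroma its median was 0.0681% (0.0197% to 0.709%), and the acute interface segments had 0.0924% and 0.102%. Relapse stroma had 0.0471% (0 to 1.11%) and relapse interface 0.0644% (0 to 0.413%). Acute stroma stood above relapse interface for Col3a1 and below it for Col1a1, and the ranges of these classes overlapped for both.

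Col1a2, the second type I chain, gave the fewest tags of the 3. Its naive medians were 0.113% in stroma (0 to 0.290%), 0.00876% at the interface (0 to 0.304%) and 0 within the tumour (0 to 0.0305%). Acute stroma had 0.0411% (0 to 0.425%), the acute interface segments 0.0394% and 0.0580%, relapse stroma 0.00971% (0 to 0.221%) and relapse interface 0 (0 to 0.0807%). It was above the quantitation limit in 14 of 15 naive stroma segments, in 7 of 13 at the interface and in 0 of 14 within the tumour. In relapse it did so in 4 of 14 stroma and 7 of 22 interface segments. Levels of this chain within the naive tumour and in most relapse segments were therefore close to what the assay could register.

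**Figure D1:**
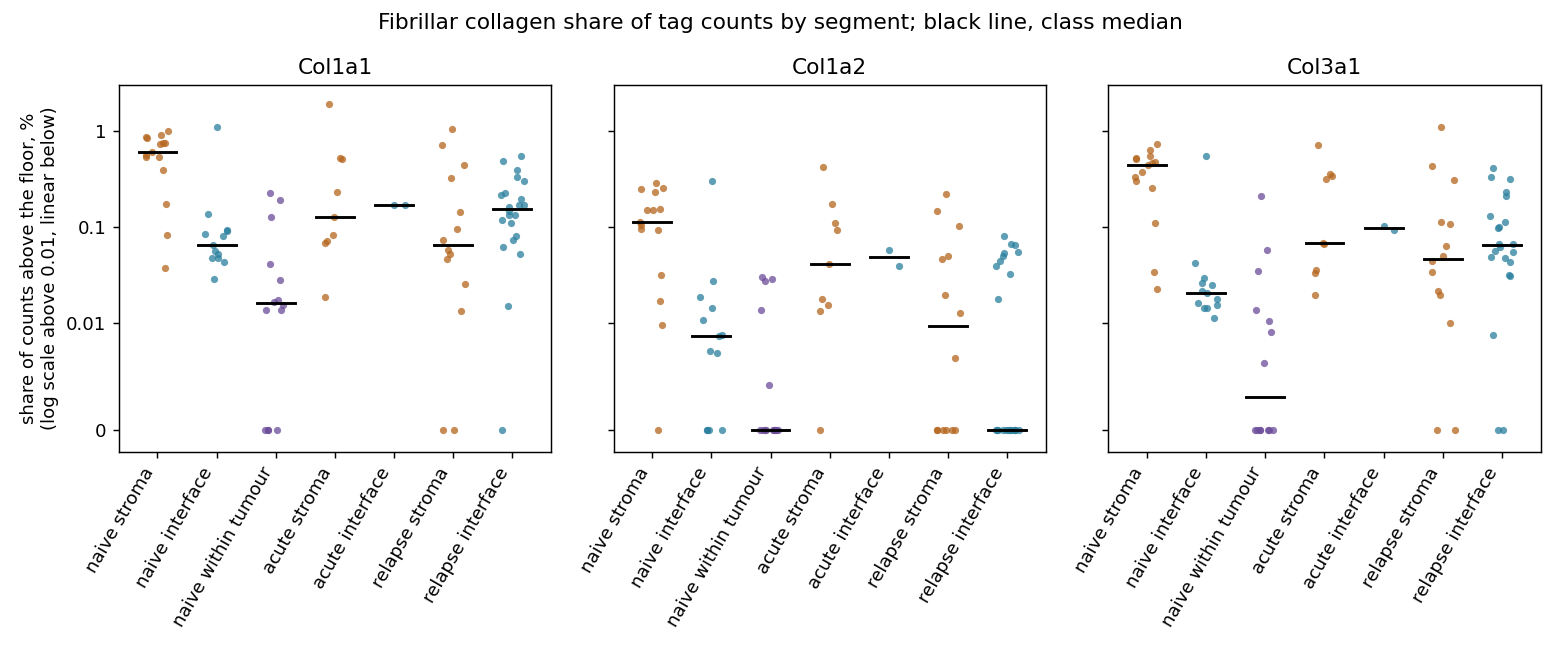
Share of counts above the floor (y axis, percent, log scale above 0.01 and linear below) of Col1a1, Col1a2 and Col3a1 in each of the 89 segments, by class (x axis); each point is 1 segment and the black line the class median. Col1a1 medians run from 0.598% in naive stroma to 0.0161% within the naive tumour, with overlapping ranges, and 1 naive interface segment at 1.09% stands with the stroma.

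The recovered counts behind these shares show how much of the gradient rests on few tags. In naive stroma Col1a1 had 20 to 964 counts (median 94), at the interface 6 to 104 (median 25) and within the tumour 1 to 8 (median 3). Col3a1 had 7 to 580, 2 to 52 and 1 to 5 counts in the same classes. For both chains every within-tumour count was below every stroma count, 14 of 14. Counts follow depth, with class medians of 7124 within the tumour and 16264 in stroma. By deposited signal 13 and 12 of 14 lay below every stroma segment, for Col1a1 and Col3a1, and by share 10 and 11. How many other targets separate in this way was not counted. For Col1a1, 3 tumour segments with depths of 2380 to 3122 counts reached shares of 0.126% to 0.224% with 3 to 7 counts. Another, with a depth of 7239, had 0.0414% against a stroma minimum of 0.0379%. The 0.224% segment rested on 7 counts and had a 95% Wilson interval of 0.109% to 0.462%. In the 4 within-tumour segments where Col1a1 was at the floor, 3 counts would have allowed a share of up to 0.0428% to 0.238%, which lies inside the range of the interface segments. These intervals and limits cover counting error only.

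Differences between classes were tested with limma on log2(deposited signal + 1), fitted over all 5087 targets that exceeded the limit of quantitation in at least 10% of segments, with 1 mean per class and Benjamini-Hochberg adjustment over all of them. Segments share animals, tumours and slides that the annotation does not name, so these p-values are too small. The floor has no single value on this scale. A Col1a2 count of 1 was a signal of 1.25 in a naive interface segment and of 3.74 in a naive stroma segment. Log2 differences of targets near the floor can therefore be too small or too large. A segment with fewer fibroblasts and one with less collagen RNA per fibroblast cannot be told apart.

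In untreated tumours all 3 chains were lower at the interface than in stroma. Col3a1 differed by a log2 of -3.24 (SE 0.429, limma adjusted p = 3.91e-09), Col1a2 by -2.60 (SE 0.389, adjusted p = 1.28e-07) and Col1a1 by -2.38 (SE 0.435, adjusted p = 2.38e-05). Of the 13 interface segments, 12 had a share below the stroma median for each chain. The median of all tested targets was -0.15, and 10.5% of them were called lower, so the call by itself was common while the size was not: the chains ranked 2, 4 and 7 from the lowest.

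For all 3 chains this pooled difference was larger than the differences within single pieces of tissue, and much of it lay between pieces. The annotation names no tissue piece, and pieces were set from the region coordinates after the data had been seen, by joining regions of a slide that lay within 8000 coordinate units of each other; this gave 5 pieces on the naive slide. Of the 15 stroma segments, 13 lay in pieces 1, 3 and 4 and had Col1a1 shares of 0.172% to 0.989%. The other 2 lay in piece 5, with 0.0379% and 0.0820%, inside the range of its 8 interface segments (0.0288% to 0.136%, median 0.0520%). The 1 interface segment of piece 1 had 1.09% (104 counts, 95% Wilson interval 0.899% to 1.32%), above the 3 stroma segments of that piece (0.598% to 0.895%). Those were the only pieces with both locations, and within them the Col1a1 signal differed by a log2 of -0.25 in piece 1 and -0.22 in piece 5. Col3a1 differed by -0.60 and -0.90, and Col1a2 by -0.29 and -0.92. In piece 1 the interface was thus higher than stroma for Col1a1 by share and lower by signal, from 1 interface segment.

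With the piece as a fixed block in the limma fit, which also draws on within-tumour segments of the same pieces, Col1a1 differed by -1.0 (SE 0.535, adjusted p = 0.451) and lost its call. Col1a2 kept it at -1.98 (SE 0.480, adjusted p = 0.0266), as did Col3a1 at -2.22 (SE 0.537, adjusted p = 0.0266). All 3 values were larger in size than the direct differences within pieces 1 and 5. Only 11 targets, 0.216% of those tested, were called lower in that fit, against 536 without the block. As a random block the piece had a consensus correlation of 0.044 over all targets, and all 3 chains kept their calls. Naive piece 5 alone held 8 of the 13 interface segments, and without it Col1a1 differed by -2.16 (adjusted p = 0.0574).

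**Figure D2:**
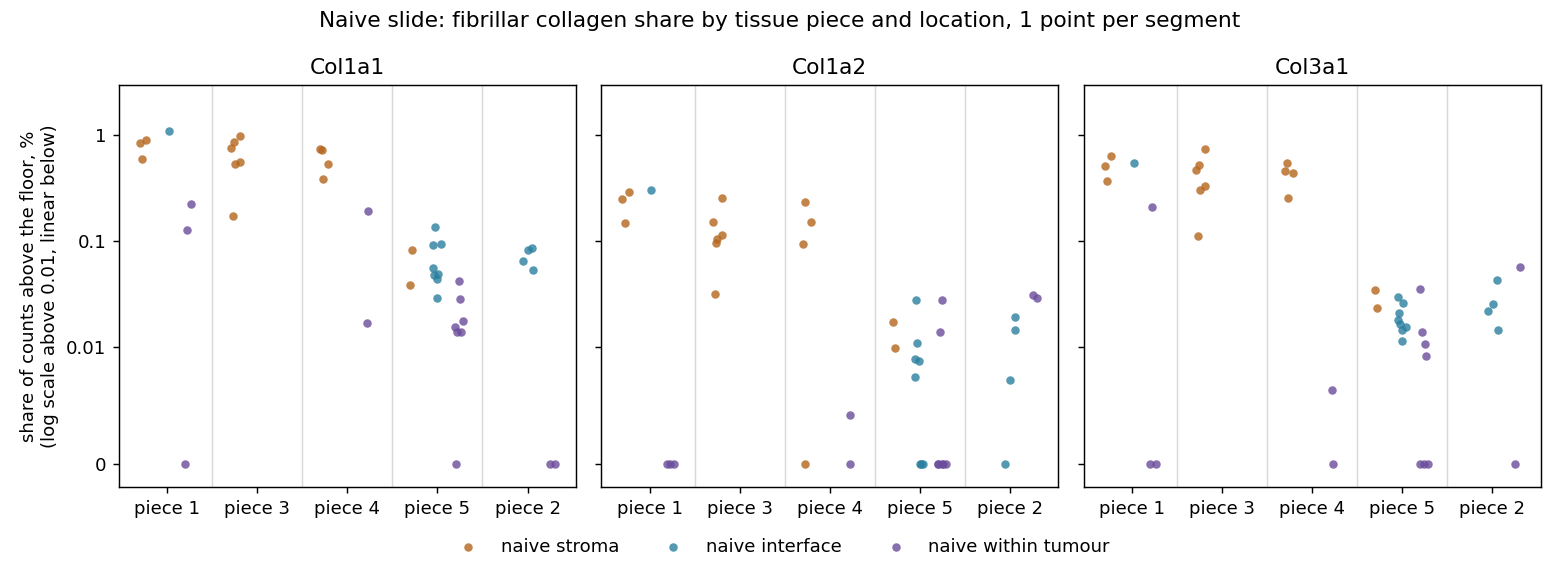
Share of counts above the floor (y axis, percent, log scale above 0.01 and linear below) of each chain in the 42 naive segments, by tissue piece (x axis) and location (colour); each point is 1 segment. Stroma of pieces 1, 3 and 4 has Col1a1 at 0.172% or more, stroma of piece 5 at 0.0379% and 0.0820%, and the interface segment of piece 1 is at 1.09%.

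Segments within the naive tumour were lower than stroma for all chains, also inside pieces. Col1a1 differed by a log2 of -4.43 (SE 0.426, limma adjusted p = 3.04e-16), the lowest of all 5087 targets. Col3a1 was next lowest at -4.32 (SE 0.421, adjusted p = 3.26e-16), and Col1a2 ranked 4 at -3.03 (SE 0.382, adjusted p = 3.10e-10). Here 3.44% of targets were called lower, and their median was -0.01. Pieces 1, 4 and 5 held both locations, and Col1a1 differed within them by -5.31, -3.63 and -2.06. With the piece as a fixed block the differences were -3.57 for Col1a1 (adjusted p = 2.17e-09), -2.66 for Col1a2 (2.49e-06) and -3.67 for Col3a1 (1.62e-09), where 0.885% of targets were called lower.

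Between the interface and the tumour interior, only Col1a1 passed the test. It was lower within the tumour by a log2 of -2.05 (SE 0.442, limma adjusted p = 0.0345) and was the only target called lower, 0.0197% of those tested. Col3a1 differed by -1.08 (adjusted p = 0.277) and Col1a2 by -0.43 (adjusted p = 0.677), and the difference between chains was not tested. Within pieces 1, 2 and 5 Col1a1 differed by -5.07, -2.80 and -1.84, and with the piece as a fixed block by -2.57 (SE 0.402, adjusted p = 6.42e-06), where it was again the 1 target called lower. The call was lost when naive piece 1, 2 or 5 was left out (adjusted p = 0.0528, 0.173 and 0.503), with values of -1.88, -1.96 and -2.49. With a pseudocount of 4 it was -1.72 (adjusted p = 0.150).

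On the relapse slide no gradient from stroma to interface was found. Col1a1 had 1 to 72 counts in stroma (median 5.5) and 1 to 21 at the interface (median 10), and Col3a1 had 1 to 44 (median 3) and 1 to 11 (median 4.5). The log2 difference, interface minus stroma, was 0.33 for Col1a1, -0.19 for Col1a2 and -0.08 for Col3a1 (SE 0.392, 0.351 and 0.387). No target was called in limma (0% of 5087; 131 had an unadjusted p under 0.05). Col1a1 spanned 0 to 1.05% in the 9 stroma segments of relapse piece 3 and 0.0625% to 0.331% in its 7 interface segments. Within relapse pieces 1, 3 and 4 Col1a1 differed by 0.84, 0.78 and -0.91, the last from 1 segment on each side.

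The location difference itself differed between the relapse and naive slides. Relapse minus naive, it was 2.70 for Col1a1 (SE 0.586, limma adjusted p = 0.00169), 2.41 for Col1a2 (SE 0.524, adjusted p = 0.00169) and 3.16 for Col3a1 (SE 0.578, adjusted p = 2.68e-04). The chains ranked 5085, 5082 and 5086 from the lowest of 5087, where 4.07% of targets were called higher. Without naive piece 5 the values were 2.49, 1.89 and 2.82 (adjusted p = 0.131, 0.194 and 0.0731). Without relapse piece 3 Col1a1 was 1.92 (adjusted p = 0.196) and Col1a2 2.43 (0.0832), and without relapse piece 1 they were 2.43 (0.0641) and 2.10 (0.0897). With the piece as a fixed block no target was called (0%; 435 had an unadjusted p under 0.05), and the chains were at 1.66, 1.95 and 2.33 (adjusted p = 0.435, 0.246 and 0.188).

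Stroma of the relapse slide carried less of each chain than naive stroma. Col1a1 was lower by a log2 of -2.99 (SE 0.426, limma adjusted p = 2.44e-07), Col3a1 by -2.90 (SE 0.421, adjusted p = 2.44e-07) and Col1a2 by -2.26 (SE 0.382, adjusted p = 1.80e-05), ranking 1, 2 and 4 from the lowest where 1.26% of targets were called lower. The median share was 9.12-fold lower for Col1a1, with 12 of 14 relapse segments below the naive median. Plate moves with this result, since all naive stroma was on plate G and all relapse stroma on plate H, and acute stroma alone links the plates. With plate as a covariate the values were -1.98, -2.03 and -0.90 in the same order, with limma adjusted p = 0.400, 0.390 and 0.739, and 8 targets in all were called. The plate term rests on acute stroma, where plate G held mostly acute piece 1 and plate H mostly other pieces. Plate and piece can therefore not be told apart in this term. Without relapse piece 3, Col1a1 was at -2.21 (adjusted p = 0.0631).

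Acute stroma lay between them and was split by tissue piece. The 4 segments of acute piece 1 had Col1a1 shares of 0.229%, 0.512%, 0.519% and 1.92%. The 5 segments of the other pieces had 0.0186%, 0.0684%, 0.0713%, 0.0817% and 0.126%, all lower by share. The 0.229% segment rested on 8 counts, with a 95% Wilson interval of 0.116% to 0.451%. By recovered counts the pieces overlapped, with 8 to 676 in piece 1 and 12 to 289 in piece 5. How many other targets split in this way was not counted. Piece 1 segments came from both plates. Against naive stroma Col1a1 differed by a log2 of -1.35 (SE 0.484), Col3a1 by -1.27 (SE 0.478) and Col1a2 by -1.08 (SE 0.433), with limma adjusted p = 0.228, 0.270 and 0.306, where 0.0197% of targets were called. Without acute piece 1 they were at -2.41, -2.36 and -2.30, with adjusted p = 0.00878, 0.00878 and 0.00592. Relapse minus acute stroma was -1.64 for Col1a1, -1.64 for Col3a1 and -1.17 for Col1a2 (adjusted p = 0.0534, 0.0533 and 0.132), where 1.53% of targets were called and 0.649% called lower. Several alternatives put these values past the threshold, among them leaving out acute piece 3 (-1.97, -1.89 and -1.61). Without acute piece 1 they shrank to -0.58 for Col1a1 and -0.54 for Col3a1 and to 0.041 for Col1a2 (adjusted p = 0.551, 0.580 and 0.967).

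At the interface the chains did not pass the test between relapse and naive, and their direction depended on the scaling and on the samples and covariates used. The log2 differences were -0.28 for Col1a1, 0.16 for Col1a2 and 0.26 for Col3a1, around a median of 0.22 over all targets, of which 9.77% were called. When recovered counts were scaled to the same total, Col1a1 turned to 0.82, Col1a2 was 0.90 and Col3a1 1.23, and all 3 passed the threshold. That scaling lifts the floor of shallow segments, and it moved the median of all targets to 0.91 and called 5000 of them. With values at the floor set to 0 before scaling, the chains were at 0.65, 0.05 and 1.08 (adjusted p = 0.340, 0.957 and 0.149) and the median of all targets at -0.28.

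**Figure D3:**
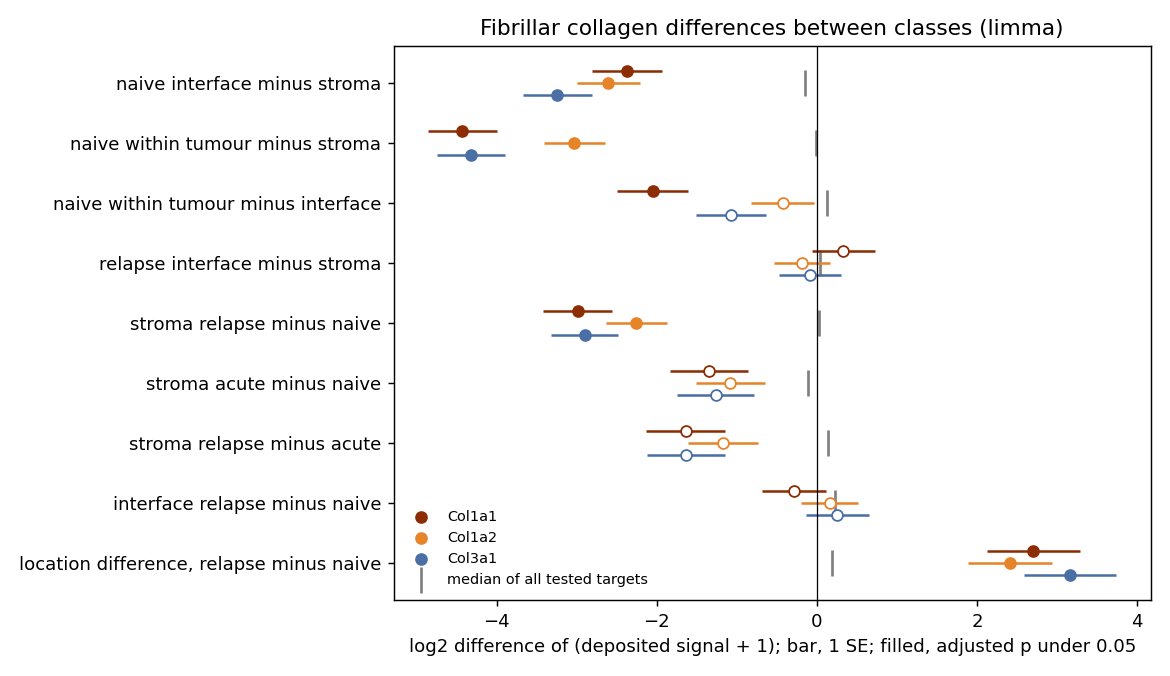
Log2 difference of deposited signal plus 1 (x axis) of each chain in the 9 comparisons (y axis); bars are 1 SE, filled points have a limma adjusted p under 0.05, and grey ticks mark the median of all 5087 tested targets. The chains lie at -2.38 to -4.43 in the naive comparisons with stroma and within 0.33 of 0 in the relapse comparison of interface with stroma.

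The chains rose and fell together in some classes and hardly in others. Over the 89 segments the log2 shares of Col1a1 and Col3a1 had a Pearson r of 0.765, those of Col1a2 and Col3a1 0.645, and those of Col1a1 and Col1a2 0.611. In naive stroma alone Col1a1 and Col3a1 reached 0.974 (n = 15), and in acute stroma 0.955 (n = 9). At the relapse interface the same pair had 0.396 (n = 22) and within the naive tumour -0.0097 (n = 14), classes whose median Col1a1 counts were 10 and 3. At the naive interface and in relapse stroma it had 0.890 (n = 13) and 0.765 (n = 14), with median Col1a1 counts of 25 and 5.5. The correlation thus did not simply follow the median count. These are descriptions over segments that share slides, tumours and a library depth; the mean log2 share of the chains itself had an r of 0.014 with log2 depth.

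The ratio of chains does not depend on the scaling of a segment, and was read where both chains exceeded the limit of quantitation. Col1a1 over Col1a2 had a median of 4.45 in naive stroma (2.20 to 9.0, 14 segments), 4.50 at the naive interface (1.75 to 11.3, 7 segments) and 4.76 in acute stroma (1.33 to 5.52, 7 segments). It was 3.56 in the 2 acute interface segments, 4.54 in relapse stroma (4 segments) and 3.0 at the relapse interface (2.0 to 5.0, 7 segments), and no within-tumour segment qualified. None of 6 comparisons of this ratio passed a two-sided exact permutation test (lowest adjusted p = 0.400 over the 12 ratio comparisons made). The limit leaves out segments with few Col1a2 counts. Summed over every segment of a class, the ratio was 3.85 in naive stroma, 6.11 at the naive interface and 4.4 within the tumour. It was 4.36 and 3.5 in acute stroma and interface, and 4.93 and 6.55 in relapse stroma and interface. The relapse interface was thus lowest by median and highest by sum, and the sums were not tested. Since probes differ in efficiency, the ratio itself says nothing on the number of chains per helix.

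The ratio of Col3a1 to Col1a1 differed between naive locations. Col3a1 over Col1a1 had a median of 0.628 in naive stroma (0.280 to 0.909, 15 segments) and 0.364 at the naive interface (0.120 to 0.538, 12 segments). The mean log2 ratio was -0.66 ± 0.38 (SD, n = 15) in stroma and -1.63 ± 0.74 (SD, n = 12) at the interface. All 12 interface segments lay below the stroma median, and the difference of -0.97 passed a two-sided permutation test (p = 0.00022, adjusted p = 0.00264). Summed over segments, stroma held 1881 Col3a1 and 2976 Col1a1 counts, a ratio of 0.632, and the interface 142 and 397, a ratio of 0.358. The sums of Col1a2, the other type I chain, were 772 and 65 counts, and Col3a1 over Col1a2 was not tested.

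The piece moved with this ratio too. In naive piece 5 the 2 stroma segments had log2 ratios of -1.84 and -0.14 and the 8 interface segments a median of -1.59 (-3.06 to -0.89). In piece 1 the interface segment was at -1.0 and the 3 stroma segments at -0.73 to -0.50. Weighted over these pieces the difference was -0.63, and an exact permutation of locations within pieces, of which there are 180 arrangements, gave p = 0.217. Leaving out 1 piece at a time kept the pooled difference between -1.02 and -0.78. At the relapse interface the median ratio was 0.571 (15 segments), higher than at the naive interface by a log2 of 0.72, which missed the threshold (adjusted p = 0.0878). Acute stroma had 0.664, relapse stroma 0.638 and the acute interface segments 0.540 and 0.604, and 3 within-tumour segments had 0.375, 0.375 and 1.67. No other comparison of this ratio passed.

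**Figure D4:**
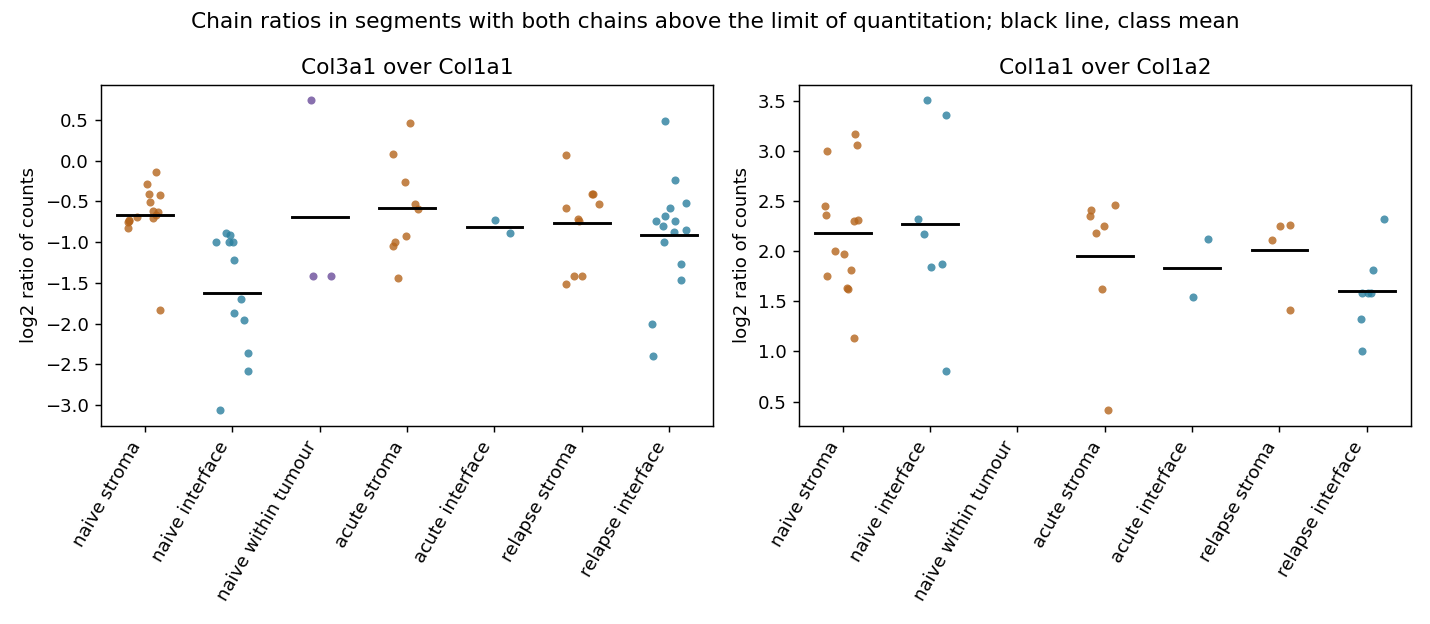
Log2 ratio of recovered counts (y axis) of Col3a1 over Col1a1 (left) and Col1a1 over Col1a2 (right) by class (x axis), in segments with both chains above the limit of quantitation; each point is 1 segment and the black line the class mean. The Col3a1 over Col1a1 mean is -1.63 at the naive interface and -0.66 in naive stroma; no within-tumour segment gives the right-hand ratio.

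Other genes of fibril assembly were followed through a list of 69 genes, 68 of them on the panel and 36 tested. In naive interface against stroma 23 of the 36 were lower and 0 higher, against 10.5% of all targets called lower; the median of the 36 was -0.66. All 9 tested fibril-associated genes were lower. Sparc, a collagen-binding matricellular protein, differed by a log2 of -2.34 (SE 0.344, limma adjusted p = 9.01e-08), the small proteoglycans Bgn, Dcn and Lum by -1.92, -1.89 and -1.55, and Postn, which aids collagen cross-linking, by -1.86. All 5 tested turnover genes were lower as well, led by the gelatinase Mmp2 at -1.95 (SE 0.301, adjusted p = 3.72e-07). Of 4 other fibrillar chains the type V chains Col5a1 and Col5a2 were lower (-1.10 and -1.27), and Col5a3 and Col11a2 were at -0.15 and -0.05. With the piece as a fixed block, 0 of the 36 were called (0.216% of all targets).

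Fewer of the list were called in the remaining comparisons. Within the naive tumour against stroma 13 of 36 were lower (3.44% of all targets), led by Sparc at -2.66, Mmp2 at -2.52, Bgn at -2.31 and Postn at -2.20. With the piece as a fixed block 5 kept the call (0.885% of all targets): Mmp2, Sparc, Lum, Dcn and Bgn, at -2.06, -2.01, -1.64, -1.50 and -1.39. In relapse stroma against naive stroma 8 were lower (1.26% of all targets), with Mmp2 at -2.01, Sparc at -1.89, Postn at -1.84 and Bgn at -1.55. For the location difference 9 were higher (4.07% of all targets), with Postn at 2.30, Sparc at 2.20, Bgn at 2.07 and Mmp2 at 2.03. At the relapse against the naive interface 3 were higher (9.36% of all targets): P4hb, a subunit of prolyl hydroxylase, by 0.73, Fmod by 0.60 and the collagen receptor Ddr2 by 0.55. In relapse minus acute stroma 2 were lower (0.649% of all targets). In naive within tumour against interface, relapse interface against stroma and acute against naive stroma 0 of 36 were called, where 0.0197%, 0% and 0.0197% of all targets were.

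**Figure D5:**
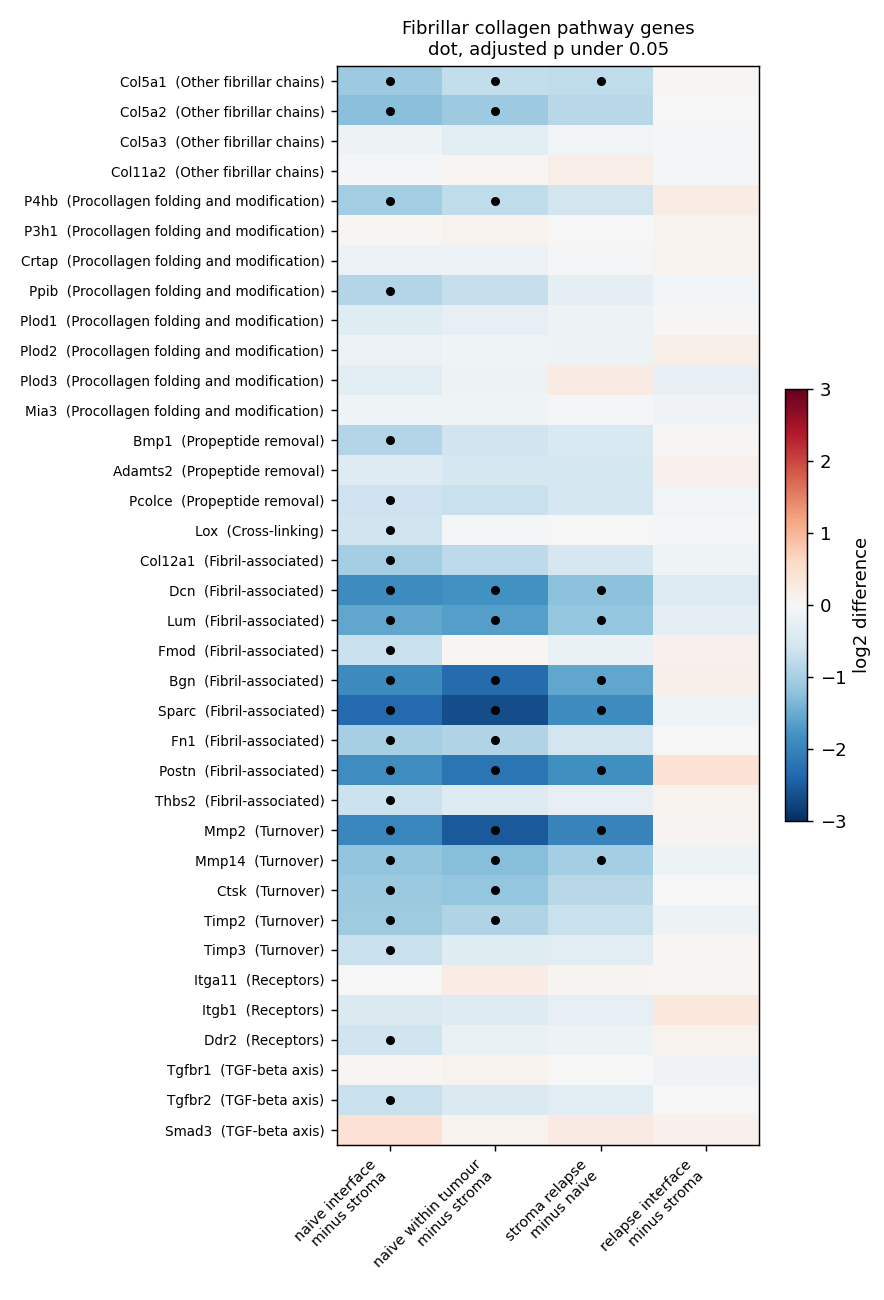
Log2 difference (colour) of the 36 tested genes of the fibril assembly list (y axis, with their role) in 4 comparisons (x axis); a dot marks a limma adjusted p under 0.05. In naive interface minus stroma 23 genes carry a dot, and in relapse interface minus stroma 0.

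Some markers of several cell types were, like the chains, lower outside the stroma of the naive slide. Of 10 fibroblast markers that are not collagens, 7 were tested, and 6 of those were lower at the naive interface than in stroma (10.5% of all targets) and 5 within the tumour (3.44%). Their summed share had a median of 0.20% in naive stroma (0.0388% to 0.342%), 0.0473% at the interface (0.0109% to 0.188%) and 0.0441% within the tumour (0 to 0.0829%), where Dpt was at the floor in every segment. Dcn and Lum are in both lists. Macrophage markers moved alike: 7 of 8 were lower at the naive interface than in stroma and 5 of 8 within the tumour, with summed medians of 0.173%, 0.0407% and 0.0357%. With the piece as a fixed block, 0 of 8 macrophage markers were called in either comparison. Of the 7 fibroblast markers, only Thy1 kept its call at the interface (0.216% of all targets), and Dcn, Lum and Dpt did so within the tumour (0.885%). In relapse stroma against naive stroma, 4 of 9 tested keratinocyte markers, Krt5, Krt14, Krt6a and Krt16, were higher, against 0.138% of all targets. There 3 of 7 fibroblast markers and 1 of 5 pericyte and smooth muscle markers were lower, beside 1.26% of all targets. Of the macrophage (8), neutrophil (2), endothelial (2), skeletal muscle (5) and adipocyte (3) markers tested, 0 were called there. Of 12 neutrophil markers 2 were tested, and their summed share, over all 12, had class medians of 0.0577% to 0.117%. Of the other lists, 2 of 5 pericyte and smooth muscle, 1 of 2 endothelial, 1 of 5 skeletal muscle and 2 of 3 adipocyte markers tested were lower at the naive interface than in stroma, again beside 10.5% of all targets. In the same comparison 1 of 9 keratinocyte markers, Krt5, and 0 of 2 neutrophil markers were lower. The part of these cells in the collagen differences was not tested.

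The targets most like the chains were chosen by the Pearson r of their log2 share with the mean of the 3 chains over 89 segments, a description without a test. They were Sparc (0.808), Serpina3n (0.729), Dcn (0.722), Apoe (0.701), B2m (0.700), H2-D1 (0.679), C4b (0.674) and Cxcl14 (0.664). The median over the other tested targets was -0.016. Sparc kept an r of 0.879 in naive stroma, 0.785 at the naive interface and 0.857 in relapse stroma, but 0.408 at the relapse interface.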

How the data were processed

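Each of the 89 segments, grouped by the stage and location words of the deposited annotation, was 1 sample. The deposited matrix holds a normalised signal, and the upper-quartile factors deposited with it are a ratio; the signal is a tag count divided by that factor, as checked on the values (99.986% of products were whole within 1e-06). Genome build mm10 and Seurat are named per the submitters' processing notes; the aligner and counter are not given in the sources used here. How the floor of 1 count was set is not given either.

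Signal was taken as log2(signal + 1) and fitted with limma 3.58.1 (lmFit, eBayes with trend) in R 4.3.3, with adjusted p at 0.05; the script was tested on simulated data. Chain ratios used two-sided permutation tests in SciPy 1.17.1 (100000 permutations where both classes had 10 or more segments, otherwise exact), adjusted over 12 comparisons. Alternatives covered scaling, pseudocount, filter, depth, plate, tissue piece and leaving out each piece. The members and lists were chosen with earlier results of these data known. Named genes were the 3 members, at most 6 called list genes of largest difference per comparison, and the 8 targets most like the members; the list genes Col5a1, Col5a2, Col5a3 and Col11a2 were named after their values were seen. Tissue pieces, the fixed piece block, the within-piece permutation and the scaling with the floor at 0 were added after seeing the data.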

Additional observations from a re-analysis of the deposited data

Results flagged for a closer look

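In acute stroma the highest of 9 segments stood apart from the rest for all 3 chains, with 1.92% of counts for Col1a1, 0.425% for Col1a2 and 0.709% for Col3a1. It was the same segment, in acute piece 1, with 16 nuclei and a depth of 4939 counts, and its Col1a1 share had a 95% Wilson interval of 1.58% to 2.35%. The log2 ratio of Col1a1 over Col1a2 had a low value of 0.42 among 7 acute stroma segments, which lay in the same piece and rested on 8 and 6 counts. Chance can set a segment apart in this way, and how often it does so in these data was not tested. The difference of interface minus stroma was not the same on the relapse and naive slides by the interaction term of limma, with values of 2.70 for Col1a1, 2.41 for Col1a2 and 3.16 for Col3a1; with tissue piece as a fixed block none of these kept its call.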

How the results depend on the processing

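Of 636 alternative values for the chains, 575 kept their direction and side of the threshold, as did 173 of 183 ratio values. Of 21 class medians of share, 19 moved by less than the spread between segments. Part of this was fixed in advance. Leaving out a piece with no segment of the compared classes cannot move their difference. Plate as a covariate cannot move a difference within the naive or the relapse slide. The direction turned for 17 chain values and 9 ratio values, none of them past the threshold before. Of these only Col1a1 between the relapse and naive interface passed it after turning, to 0.82 with counts scaled to the same total; there Col1a2 (0.90) and Col3a1 (1.23) passed too. That difference of Col1a1 also turned to 0.72 with plate as a covariate and to 0.65 with the floor set to 0 before scaling, and that of Col3a1 to -0.0056 with log2 depth as a covariate. In relapse interface minus stroma, Col1a2 turned to 0.066 and Col3a1 to 0.19 with the same total, and Col3a1 to 0.11 with the piece as a fixed block and 0.23 with the floor set to 0. Col1a2 in naive tumour minus interface turned to 0.27 with the same total. With all segments, Col1a1 over Col1a2 turned to 0.58 in relapse interface minus stroma and to -0.53 in relapse minus acute stroma, and Col3a1 over Col1a1 to 0.046 in relapse minus naive stroma. With at least 20 counts of both chains, acute minus naive stroma turned to 0.22 for Col1a1 over Col1a2 and to -0.22 for Col3a1 over Col1a1. Scaling to the same total moved the median of all targets in relapse minus naive interface from 0.22 to 0.91. The naive difference of Col1a1 between tumour and interface lost its call with a pseudocount of 4 (-1.72), log2 depth as a covariate (-2.01) and the floor set to 0 before scaling (-1.57). With plate as a covariate, relapse minus naive stroma lost its calls (-1.98, -0.90 and -2.03 for Col1a1, Col1a2 and Col3a1). With tissue piece as a fixed block, Col1a1 lost the naive interface call (-1.0), and the location difference lost its calls (1.66, 1.95 and 2.33); Col1a2 also lost it with the floor set to 0 (1.95). Within pieces, the Col3a1 over Col1a1 difference was -0.63 (p = 0.217 by exact permutation). Relapse minus acute stroma gained calls: Col1a1 at -1.42 with the upper quartile of tested targets and -1.64 with no filter or at least 2000 counts, Col3a1 at -1.38, -1.64 and -1.64 with these settings and -1.92 with log2 depth, and Col1a2 at -1.17 with no filter. With the floor subtracted from every count, the acute interface median share was 0.220% for Col1a1 and 0.125% for Col3a1.

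Leaving out each tissue piece gave these ranges. Naive interface minus stroma was -2.39 to -2.16 for Col1a1, and naive tumour minus interface -2.49 to -1.88. Relapse minus naive stroma was -3.42 to -2.21 for Col1a1. Acute minus naive stroma was -2.41 to -1.02 for Col1a1, -2.30 to -0.63 for Col1a2 and -2.36 to -0.88 for Col3a1. Relapse minus acute stroma was -2.08 to -0.58, -1.61 to 0.041 and -2.02 to -0.54, and the location difference 1.92 to 3.14, 1.89 to 2.59 and 2.76 to 3.51, in that order. Relapse minus naive interface was -0.89 to 0.0029, -0.71 to 0.50 and -0.51 to 0.59. Relapse interface minus stroma was -0.46 to 0.76 for Col1a1 and -0.48 to 0.27 for Col3a1. Col1a1 over Col1a2 was -0.10 to 0.27 in naive interface minus stroma and -0.28 to 0.0082 in relapse minus naive stroma. Col3a1 over Col1a1 was -0.23 to 0.23 in relapse interface minus stroma and -0.0040 to 0.15 in acute minus naive stroma. Counts of called targets moved more: over all alternatives 81 of 212 differed by over 1.5 times from the count first given. Naive interface minus stroma ran from 11 to 678 called targets and relapse minus naive interface from 7 to 11499, the last with no filter. The ratios limited to segments with at least 20 counts of both chains gave a value only for acute minus naive stroma. The planned count model was not run, because the deposited matrix pools segments with 9 different factors and was not accepted as whole reads. Depth limits Col1a2 most, which never exceeded the limit of quantitation within the naive tumour.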
